A study of Mus musculus with 8 samples.

Results

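Tight junctions seal the space between neighbouring epithelial cells, and claudins are the membrane proteins that form their strands. In the epidermis these junctions lie in the granular layer of keratinocytes. Langerhans cells, which are epidermal dendritic cells, push their dendrites through them while forming tight junctions of their own with the keratinocytes. The 9 genes described here encode 5 claudins (Cldn1, Cldn4, Cldn7, Cldn12 and Cldn23), the junctional membrane proteins occludin (Ocln) and tricellulin (Marveld2), and the cytoplasmic plaque proteins ZO-1 (Tjp1) and cingulin (Cgn). They were taken by symbol from a table of 25247 genes, and all 9 had a row. They were measured by bulk RNA sequencing of Langerhans cells sorted from the epidermis of mouse ears.

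The knockout (KO) group is labelled as EZH2 KO and the control group as wild type (WT), both on a C57BL/6 background and both untreated as far as the labels say. Ezh2 is the histone methyltransferase of Polycomb repressive complex 2. The driver of the deletion, the deleted part of the gene, and the age and number of the mice are not given in the sources used here. Sorting gates kept live CD45+ MHCII+ CD24+ EpCAM+ cells that lacked Ly6G and CD103.

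Each of the 8 libraries carries a code in the sample title and another in the description, and for 4 of them these place the library in different groups. Libraries RMN038 and RMN039 are KO, and RMN030 and RMN031 are WT, in both fields. Libraries RMN032 and RMN033 are KO by title code and WT by description code, while RMN036 and RMN037 are WT by title code and KO by description code. The 9 genes are therefore given under 3 readings, with none preferred: the 4 undisputed libraries (2 KO, 2 WT), the title code (4 KO, 4 WT) and the description code (4 KO, 4 WT). The codes also form a later run (036 to 039) and an earlier run (030 to 033). In the undisputed libraries and by description code, every KO library is of the later run and every WT library of the earlier run, so genotype and code run cannot be told apart there. By title code each run holds 2 KO and 2 WT libraries.

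Library totals were between 11051402 and 18966195 counts. Ezh2 itself was at 10.5 to 15.2 CPM (counts scaled to a fixed library total) in KO and 15.7 to 22.4 CPM in WT by title code. These ranges did not overlap, as for 2.94% of all genes. In the undisputed libraries Ezh2 was at 10.5 to 12.7 CPM in KO and 15.7 to 22.4 CPM in WT. These did not overlap either, as for 41.7% of all genes. By description code Ezh2 was at 10.5 to 19.0 CPM in KO and 14.9 to 22.4 CPM in WT, and these ranges overlapped. The sorted cells carried the Langerhans cell markers in all 8 libraries (10 of 10 genes, summed level 67122 to 84564 CPM, with langerin, Cd207, at 9706 to 11963 CPM). Basal keratinocyte markers were also present (7 of 7 genes, 13784 to 18217 CPM in sum, Krt14 highest). Keratinocytes make tight junction transcripts too, and the cell of origin of the transcripts below was not tested. In bulk RNA, a lower level from fewer cells of a type and from less RNA per cell cannot be told apart.

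The 250 bases upstream of the annotated start are shown for the 4 genes with the highest level per length, among them Cldn4, the one gene of the 9 that passed the threshold in any of the 3 readings. The sequences are from RefSeq on GRCm38.p6, written 5′ to 3′ on the strand of the gene. Capitals mark the E-box CACCTG, bound by repressors of the Snail and Zeb families, and the GC box GGGCGG, bound by Sp and Klf factors, each searched on both strands.
Cldn4 (chr5:134946935-134947184, minus strand): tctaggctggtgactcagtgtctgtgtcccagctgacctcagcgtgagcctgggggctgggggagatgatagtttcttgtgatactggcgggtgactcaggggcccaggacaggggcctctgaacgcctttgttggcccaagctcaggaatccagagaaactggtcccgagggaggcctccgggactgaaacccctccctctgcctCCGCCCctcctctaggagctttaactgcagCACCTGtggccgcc
Cldn1 (chr16:26371840-26372089, minus strand): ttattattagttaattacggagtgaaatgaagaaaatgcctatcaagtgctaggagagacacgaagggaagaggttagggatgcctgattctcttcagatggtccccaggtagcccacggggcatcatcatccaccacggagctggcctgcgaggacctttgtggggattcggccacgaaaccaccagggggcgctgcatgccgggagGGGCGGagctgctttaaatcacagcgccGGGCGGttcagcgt
Ocln (chr13:100552719-100552968, minus strand): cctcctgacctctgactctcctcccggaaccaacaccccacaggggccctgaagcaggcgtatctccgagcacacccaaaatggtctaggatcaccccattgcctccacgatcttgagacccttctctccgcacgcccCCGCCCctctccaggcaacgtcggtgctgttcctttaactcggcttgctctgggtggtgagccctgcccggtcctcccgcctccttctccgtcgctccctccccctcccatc
Marveld2 (chr13:100616972-100617221, minus strand): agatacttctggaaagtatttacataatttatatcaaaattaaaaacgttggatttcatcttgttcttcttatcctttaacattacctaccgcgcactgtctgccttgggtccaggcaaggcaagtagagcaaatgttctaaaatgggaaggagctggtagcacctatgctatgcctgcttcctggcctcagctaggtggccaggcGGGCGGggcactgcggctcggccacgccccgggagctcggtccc
The Cldn4 window held the E-box, whose first base lies 14 bases before the start, and 1 GC box on the opposite strand. The other 3 windows shown held no E-box, but the window of an alternative start of Ocln, not shown, held 2, at 213 and 68 bases before that start. The Cldn1 window held 2 GC boxes, and those of Ocln and Marveld2 held 1 each. RefSeq windows were found for 8 of the 9 genes, 13 windows in all since several genes have alternative starts that overlap. A GC box stood in 11 of the 13 windows (84.6%), against 32.7% of all 32851 mouse windows of this length. The E-box stood in 3 of the 13 (23.1%), against 17.2% of all windows. The sequence AACNGGTT, the site of the Grainyhead-like factors that activate epithelial junction genes, stood in 1 of the 13 (Cgn), against 1.79% of all windows. These matches describe the letters only, and no binding was measured.

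Per kb of exon, the 9 genes spanned more than 3 orders of magnitude in level, and Cldn1 led. Cldn1, the claudin without which newborn mice lose water through the skin, had a mean of 568 ± 46.6 CPM per kb over the 8 libraries (SD), rank 60 of 16384 protein-coding genes. Cldn4, a claudin of the upper epidermis and a receptor for a clostridial enterotoxin, followed at 171 ± 68.7 CPM per kb (rank 207). Next came Ocln at 53.0 ± 6.15 and Marveld2, whose product sits where 3 cells meet, at 25.6 ± 5.38 CPM per kb. Tjp1, the scaffold that ties claudins to actin, was at 9.94 ± 2.04 CPM per kb. Cldn12, a claudin that lacks the usual PDZ-binding end, was at 2.75 ± 0.748 CPM per kb, and Cgn, which links the plaque to the cytoskeleton, at 1.14 ± 0.345 CPM per kb. The ranges of these last 2 genes overlapped over the libraries, whereas each gene from Cldn1 down to Tjp1 lay wholly above the next. Cldn23 and Cldn7 were the lowest, at 0.245 and 0.233 CPM per kb, and their order was not separable. The library-to-library spread of Cldn4 (coefficient of variation 40.1%) was wider than that of Cldn1 (8.20%), Ocln (11.6%), Tjp1 (20.6%) and Marveld2 (21.0%). It was also wider than that of Cldn12 (27.2%) and Cgn (30.2%), but narrower than that of the lowest genes, Cldn23 (105%) and Cldn7 (110%).

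**Figure D1:**
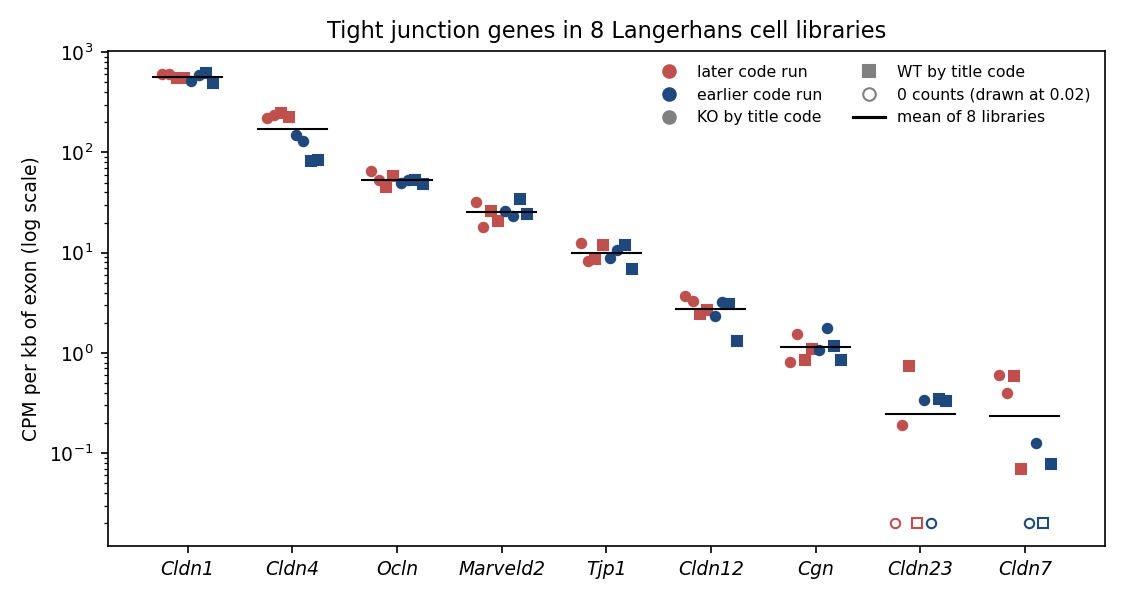
Level of each tight junction gene in CPM per kb of exon (log axis), 1 point per library, with red for the later and blue for the earlier code run, circles for KO and squares for WT by title code, and a line at the mean of 8 libraries. The red and blue points are apart for Cldn4 and mixed for the other genes, and Cldn23 and Cldn7 each have libraries with 0 counts, drawn as open symbols.

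Cldn4 (ENSMUSG00000047501.3, GRCm38 chromosome 5, 134945119 to 134946934, minus strand) was the gene whose level differed. It had 428 and 399 CPM in the undisputed KO libraries RMN038 and RMN039, against 152 and 148 CPM in the WT libraries RMN030 and RMN031. The disputed libraries had 411 CPM in RMN036, 447 in RMN037, 236 in RMN032 and 270 in RMN033. All 4 libraries of the later run were therefore above all 4 of the earlier run. Within the earlier run, RMN032 and RMN033, KO by title code, lay above RMN030 and RMN031, and within the later run the title groups overlapped.

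In the undisputed libraries Cldn4 was 2.84-fold higher in KO, at 413 ± 20.8 CPM against 150 ± 2.71 CPM in WT (SD, n = 2 each). On the log2 scale the difference was 1.51 (SE 0.14, adjusted p = 2.29e-04, edgeR quasi-likelihood test with Benjamini-Hochberg adjustment over 14727 genes). It was the 1 call among the 8 tight junction genes tested, where 0.794% of all genes were called and 0.448% were called higher. By title code Cldn4 had 333 ± 94.4 CPM in KO and 289 ± 162 CPM in WT (SD, n = 4 each), and the log2 fold change of 0.20 (SE 0.44) did not pass (edgeR adjusted p = 0.998). By description code it had 421 ± 20.9 CPM in KO and 201 ± 61.1 CPM in WT (SD, n = 4 each), a 2.16-fold higher level with no overlap between groups. The log2 fold change was 1.11 (SE 0.16, edgeR adjusted p = 0.0035), 1 call among the 7 genes tested, where 2.02% of all genes were called and 1.43% were called higher. The exact two-sided permutation test on CPM gave p = 0.0286, the smallest this design allows. Of the 7 tight junction genes in both 8-library fits, 1 (Cldn4) had description-code groups that did not overlap, against 8.82% of all genes. By title code this held for 0 of 7, against 2.94% of all genes, and in the undisputed libraries for 2 of 7 (Cldn4 and Cldn12), against 41.7%. No label ties a library to an animal, so each p-value refers to the spread among these libraries, which may be technical.

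The title code is the one reading in which genotype and code run can be fitted together. In that fit Cldn4 was 2.22-fold higher in the later than in the earlier run (log2 difference 1.15, SE 0.08, edgeR adjusted p = 3.01e-05). It was the 1 call among the 9 genes, where 2.51% of all genes were called. The run split holds the same libraries as the description-code groups, so this is no separate result from that reading. Within the earlier run Cldn4 had 253 ± 24.4 CPM in title-code KO and 150 ± 2.71 CPM in WT (SD, n = 2 each). The log2 difference was 0.71 (SE 0.11, edgeR adjusted p = 0.0435). This was 1 call among 9 genes, where 0.186% of all genes were called, and in 6 of the 8 fits that left out 1 library it was lost (log2 difference 0.61 to 0.82, edgeR adjusted p 0.0591 to 0.372 in those 6). The 6 include each fit without a library of the earlier run, RMN030, RMN031, RMN032 or RMN033, and those without RMN038 or RMN039. Within the later run the levels were 413 ± 20.8 CPM in title-code KO and 429 ± 25.4 CPM in WT (SD, n = 2 each). The log2 difference there was -0.03 (SE 0.11, edgeR adjusted p = 0.986), and 0% of all genes were called. The difference between these genotype effects, later minus earlier run, was -0.73 on the log2 scale (SE 0.15, edgeR adjusted p = 0.227). It did not pass over all genes, of which 0.0186% were called.

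**Figure D2:**
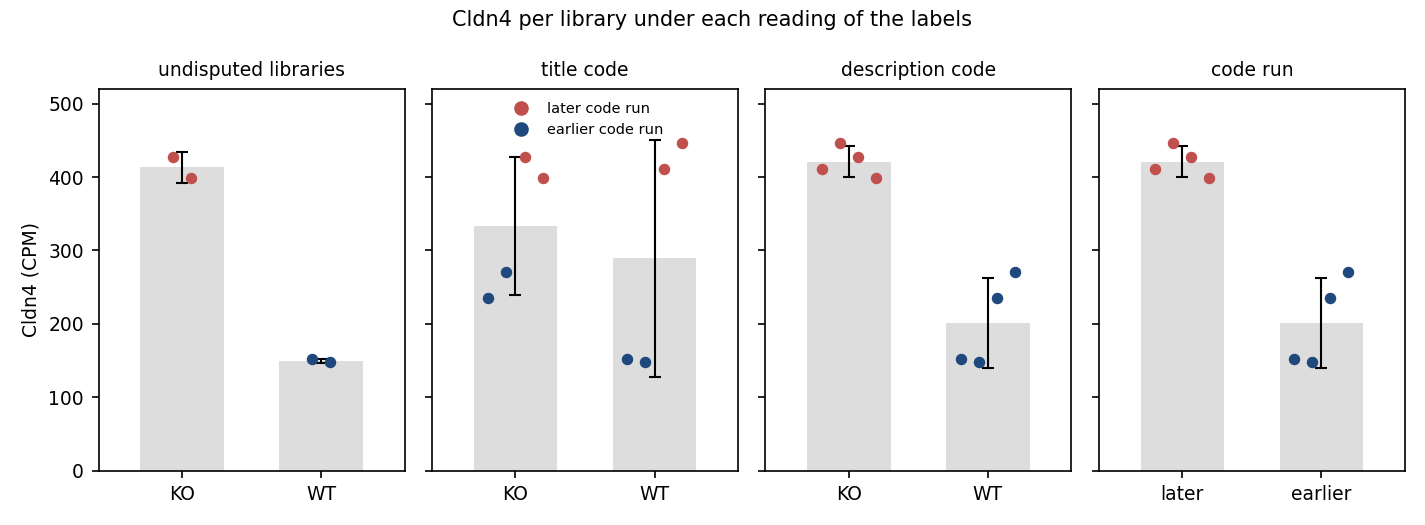
Cldn4 in CPM per library (points, red for the later and blue for the earlier code run) with group means (bars from 0) and SD (error bars), for the undisputed libraries, the title code, the description code and the code run. KO means are 413, 333 and 421 CPM and WT means 150, 289 and 201 CPM in the first 3 panels, and the last panel repeats the split of the description code.

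Several other transcripts moved with the level of Cldn4 across the libraries, and their part in it was not tested. Suprabasal keratinocyte markers (9 of 10 with a row, 8 or 9 detected per library) summed to 835 to 892 CPM in the later run and 653 to 813 CPM in the earlier run, with no overlap. Loricrin (Lor), which marks the granular layer, was at 0 in 4 libraries and at most 0.95 CPM in the others. Krt1, the keratin of the spinous layer, was called higher by description code, at 88.3 ± 8.62 CPM in KO and 49.8 ± 11.9 CPM in WT (SD, n = 4 each), but not in the undisputed libraries or by title code. Hair follicle and sebaceous markers (10 of 10 with a row) summed to 794 to 1029 CPM in the later and 492 to 778 CPM in the earlier run, with Krt79 called higher in KO in the undisputed libraries and by description code. Basal keratinocyte markers did not separate the runs in sum (13784 to 16092 CPM later, 13970 to 18217 CPM earlier). Of these, 2 of 7, Krt15 and Trp63, were called lower in description-code KO, where 2.02% of all genes were called. Trp63 was also called lower in undisputed KO, where 0.794% of all genes were called. No keratinocyte marker was called by title code. The mitochondrial share of counts was 3.76% to 4.03% in the later and 1.02% to 1.87% in the earlier run. Fibroblast markers (7 of 7 with a row) summed to 119 to 199 CPM in the later and 37.0 to 62.8 CPM in the earlier run. Mast cell markers (5 of 5) summed to 44.5 to 65.6 CPM in the later and 31.1 to 43.1 CPM in the earlier run, and red blood cell markers (5 of 5) to 580 to 1355 CPM in the later and 122 to 226 CPM in the earlier run. Macrophage markers (6 of 6) overlapped in sum, at 582 to 619 CPM in the later and 463 to 598 CPM in the earlier run. Of the 6, Lyz2, F13a1 and Cd163 were called higher in undisputed KO, while by description code Lyz2 and F13a1 were called higher and C1qa lower. Called higher in undisputed KO were also 5 of 5 red blood cell, 3 of 7 fibroblast and 1 of 5 mast cell genes tested. In that reading 7 of 10 T cell genes were called lower, but only 5 of the 10 entered each of the 8-library fits. The T cell sum was high only in the 2 WT libraries of that reading, through which such genes can enter its fit. By description code 5 of 5 red blood cell, 4 of 6 fibroblast and 4 of 5 mast cell genes were called higher, and 0 of 5 T cell genes were called. The shares of all genes called were 0.794% and 2.02%. T cell markers (10 of 10) summed to 234 and 211 CPM in RMN030 and RMN031, the 2 libraries lowest in Cldn4, and to 6.27 to 16.5 CPM in the other 6. Without these 2 libraries the description-code log2 fold change of Cldn4 was 0.79 (edgeR adjusted p = 0.0022) and the title-code one -0.36 (edgeR adjusted p = 0.883). That title-code fit set WT libraries of the later run alone against KO libraries of both runs, so genotype and code run were no longer balanced.

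Cldn1 (ENSMUSG00000022512.2, chromosome 16, 26356642 to 26371841, minus strand) supplied most claudin counts but did not pass the threshold in any of the 3 readings. It had 2958 and 2954 CPM in the undisputed KO libraries, against 2379 and 2989 CPM in the WT libraries RMN030 and RMN031. The groups overlapped because RMN031 was the highest of the 8 libraries and RMN030 the lowest. The disputed libraries lay between them, at 2844 CPM in RMN032, 2515 in RMN033, 2694 in RMN036 and 2659 in RMN037. The undisputed, title and description log2 fold changes were 0.19 (SE 0.13), 0.07 (SE 0.09) and 0.12 (SE 0.08), with edgeR adjusted p of 0.670, 0.998 and 0.634. Without RMN031 the undisputed value was 0.33 (SE 0.08), with RMN030, the library lowest in Cldn1, as the lone WT library.

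The balance between both leading claudins followed Cldn4, so the shares and ratios below largely restate its level and are no separate test. Counts of 15 claudin genes were summed per library, and those other than Cldn1 and Cldn4 made up 0.424% to 0.731% of the sum. Cldn4 supplied 12.6% and 11.8% of the claudin counts in the undisputed KO libraries, against 5.98% and 4.69% in RMN030 and RMN031. By description code the share was 12.95% ± 1.04 in KO and 6.97% ± 2.13 in WT (SD, n = 4 each; the exact permutation p was again 0.0286), and by title code 10.4% ± 2.24 in KO and 9.53% ± 4.89 in WT (exact permutation p = 0.771). Per kb of exon, Cldn1 exceeded Cldn4 by 2.52 ± 0.230 times in description-code KO and by 5.37 ± 1.76 times in WT. Cldn1 remained the more abundant claudin in all 8 libraries.

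Occludin and tricellulin are related 4-pass membrane proteins, and their genes lie 43238 bp apart on chromosome 13. Ocln had 222 and 274 CPM in the undisputed KO libraries RMN038 and RMN039, against 203 and 226 CPM in RMN030 and RMN031. Marveld2 had 61.5 and 108 CPM in these KO libraries, against 82.2 and 116 CPM in these WT libraries. Both genes overlapped between groups, and RMN038 held the lowest Marveld2 level of all 8 libraries while RMN039 held the highest Ocln level. In the disputed libraries RMN036, RMN037, RMN032 and RMN033, Ocln had 244, 190, 223 and 207 CPM and Marveld2 had 70.5, 89.0, 77.7 and 88.6 CPM. The log2 fold changes of Ocln were 0.26 (SE 0.15), 0.10 (SE 0.12) and 0.16 (SE 0.11) in the undisputed, title and description readings, with edgeR adjusted p between 0.590 and 0.998. Those of Marveld2 were -0.18 (SE 0.26), -0.09 (SE 0.18) and -0.10 (SE 0.17), with edgeR adjusted p between 0.876 and 0.998.

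The plaque genes were likewise without a call. Tjp1 had 65.0 and 96.7 CPM in the undisputed KO libraries RMN038 and RMN039, against 53.5 and 92.5 CPM in RMN030 and RMN031. Over all 8 libraries it ranged from 53.5 to 96.7 CPM, and both ends were undisputed libraries of different genotype. Cgn had 9.31 and 4.89 CPM in RMN038 and RMN039, against 5.12 and 7.06 CPM in RMN030 and RMN031, and the highest level was 10.6 CPM in the disputed library RMN032. The log2 fold changes of Tjp1 were 0.19, 0.03 and 0.16 (SE 0.17 to 0.26) in the undisputed, title and description readings, and those of Cgn were 0.27, 0.38 and -0.12 (SE 0.28 to 0.43). The edgeR adjusted p was between 0.797 and 0.998 for both genes.

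Among the minor claudins, Cldn12 had 13.9 and 15.6 CPM in the undisputed KO libraries, against 5.50 and 13.1 CPM in RMN030 and RMN031. These groups of 2 did not overlap, with RMN030 lower than the 7 other libraries, which were all between 9.81 and 15.6 CPM. The log2 fold change was 0.71 (SE 0.40), 0.40 (SE 0.27) and 0.32 (SE 0.27) in the undisputed, title and description readings, with edgeR adjusted p of 0.562, 0.998 and 0.710. The undisputed value was 0.23 without RMN030 and 1.44 without RMN031 (edgeR adjusted p = 0.0766), and neither passed.

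Cldn7, whose product binds EpCAM, had 11 and 13 counts in the undisputed KO libraries, against 2 and 0 counts in the WT libraries. The ratio of the summed levels was 15.1 (exact 95% interval 3.75 to 132, counting error only, and too narrow if both mates of a pair were counted). The gene entered the undisputed fit only through the KO libraries and did not pass (edgeR adjusted p = 0.389). The disputed library RMN037 had 19 counts, the most of the 8, and RMN036, RMN032 and RMN033 had 2, 4 and 0. Cldn7 was too low for the 8-library fits by title or description code. Cldn23, a claudin of differentiated epithelia, was too low for all 3 readings. It had 5 and 0 counts in the undisputed KO libraries, against 8 and 12 in the WT libraries, and 23 in RMN037, 12 in RMN033 and 0 in RMN036 and RMN032. A count of 0 allows up to 3 counts, or 0.158 to 0.271 CPM over the libraries, and all nonzero values of both genes were at or below 1.38 CPM.

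**Figure D3:**
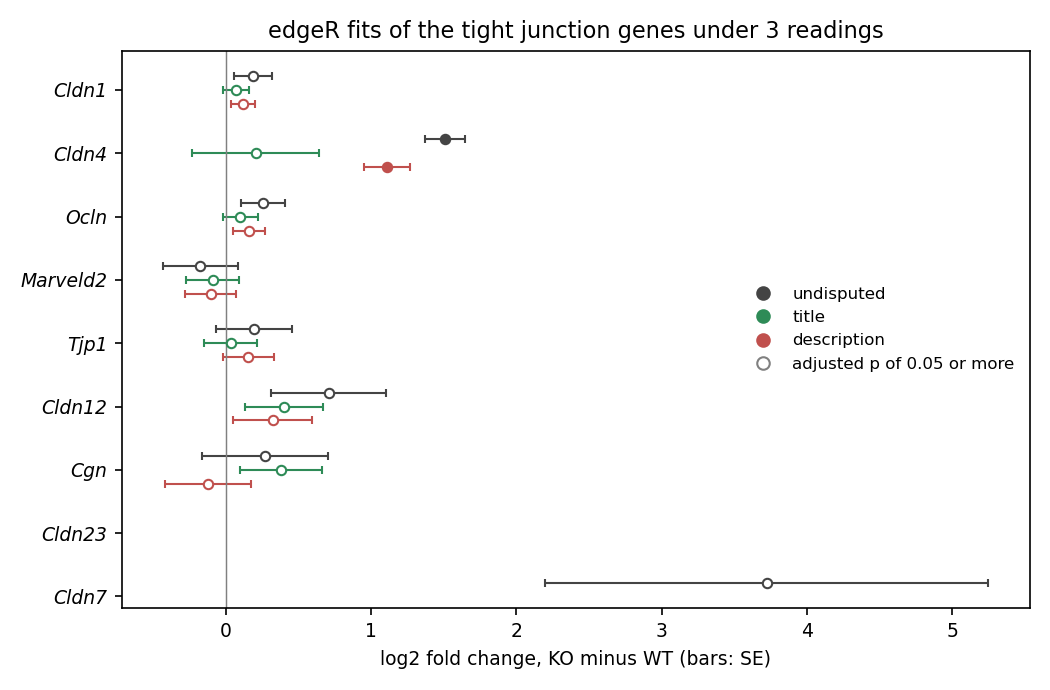
edgeR log2 fold change of KO minus WT with SE for each gene under the undisputed (black), title-code (green) and description-code (red) readings, where filled points passed the adjusted threshold of 0.05. Only Cldn4 has filled points, at 1.51 and 1.11, Cldn23 was not tested, and the Cldn7 value rests on 2 counts in WT.

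Over the genes tested, the median log2 fold change was 0.26 in the undisputed libraries (8 genes, 7 above 0, with Cldn7 tested only through its KO counts), against -0.0016 over all genes. It was 0.10 by title code (7 genes, 6 above 0), against -0.0033, and 0.16 by description code (7 genes, 5 above 0), against -0.0085. Of all genes tested, 7333 of 14727, 7220 of 14630 and 7147 of 14630 were above 0 in the undisputed, title and description readings. By title code no tight junction gene passed in edgeR, DESeq2 or limma voom, and 0 of 7 were under an unadjusted edgeR p of 0.05. With the code run as a covariate, 1 of 7 (Cldn4, log2 fold change 0.34, SE 0.13) was under it, and it did not pass over all genes (edgeR adjusted p = 0.761). Over all genes, 0% were called by edgeR in the title reading. The 672 of 14630 genes with an unadjusted edgeR p under 0.05 there were no more than that cutoff passes by chance.

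Other genes of the junction were read from 5 lists: 12 other claudins and relatives, 10 further membrane proteins, 26 plaque and polarity proteins, 6 genes of the EpCAM and matriptase axis and 16 epithelial transcription factors. Among the most abundant per kb were Epcam (284 CPM per kb), which codes for an adhesion protein that binds claudins, and Lsr (96.6), which codes for the tricellular protein that recruits tricellulin. The matriptase gene St14 was at 71.1, F11r (JAM-A) at 64.0 and Cxadr, which codes for the coxsackievirus and adenovirus receptor, at 10.5 CPM per kb. In the plaque list, the guanine nucleotide exchange factor gene Arhgef2 was at 36.9 and the polarity gene Pard6g at 19.1 CPM per kb. Ovol1, a repressor of epithelial proliferation, was at 71.0 CPM per kb among the transcription factors. Among the remaining claudins, Cldn9 and Cldn8 had 2.74 and 0.974 CPM per kb, while Cldnd1, a claudin-domain relative, had 39.3. None of these 11 named genes passed in any of the 3 readings.

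In the undisputed libraries 2 of the 56 genes tested from these lists were called, 1 higher and 1 lower, against 0.794% of all genes. By description code 5 of 54 were called, 4 higher and 1 lower, against 2.02% of all genes, and by title code 0 of 54 (1 with an unadjusted edgeR p under 0.05, and 0 called by DESeq2 or limma voom). Klf5, a factor of proliferating epithelium, was higher in both of the readings with calls: by description code it had 168 ± 5.62 CPM in KO and 83.0 ± 10.2 CPM in WT (SD, n = 4 each, log2 fold change 1.06, edgeR adjusted p = 8.17e-05). Grhl3, a Grainyhead-like factor of barrier formation, had 35.2 ± 4.16 CPM in description-code KO and 17.7 ± 3.06 CPM in WT (log2 fold change 1.04, edgeR adjusted p = 0.0048). Prkci, the atypical protein kinase C of the polarity complex, was 1.73-fold higher in description-code KO (edgeR adjusted p = 0.0233). Trp63, the p63 factor of basal keratinocytes, was lower in both readings with calls, at 206 ± 43.2 CPM in description-code KO and 355 ± 70.8 CPM in WT (SD, n = 4 each, log2 fold change -0.74, edgeR adjusted p = 0.0226). The undisputed log2 fold changes of Klf5, Grhl3, Prkci and Trp63 were 1.09, 1.12, 0.95 and -0.80, of which those of Klf5 and Trp63 passed, and the title-code values were 0.03, 0.03, 0.15 and 0.05, none of which passed (edgeR adjusted p = 0.998). In the title-code fit, these 4 genes were called in the same direction between the later and the earlier run. There 5 of 58 tested genes were called, against 2.51% of all genes. The run split holds the same libraries as description-code KO and WT, so this is no separate result. The undisputed count of 2 became 5 with no filter, 6 by DESeq2, 5 without RMN030, 8 without RMN031, 1 without RMN038 and 4 without RMN039. The calls over all genes were 117 in that reading, and in those fits 440, 293, 263, 629, 342 and 435. The description count of 5 became 3 without RMN033, RMN038 or RMN039, where the calls over all genes were 140, 164 and 177, against 296 with all libraries. It was 6 with no filter or by limma voom and 7 by DESeq2.

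The 5 protein-coding genes with the highest Pearson correlation to Cldn4 on log2(CPM + 0.5) over the 8 libraries, among 12309 genes, were Lypd3 (r = 0.991), Alas2 (0.979), Plet1 (0.973), Dnase1l3 (0.973) and F3 (0.972). The 8 libraries share their code runs, so these values describe likeness only. Lypd3, which encodes a GPI-anchored protein of suprabasal keratinocytes, had 385 to 426 CPM in the later run and 218 to 303 CPM in the earlier run. Alas2, the erythroid enzyme of haem synthesis, had 36.7 to 49.4 CPM in the later run and 3.21 to 9.86 CPM in the earlier run. All 5 genes had no overlap between the runs, as 8.82% of all genes did, and lower values in RMN030 and RMN031 than in RMN032 and RMN033. Cldn4 has this pattern and the 5 were chosen for likeness to it, so sharing it is no separate result.

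**Figure D4:**
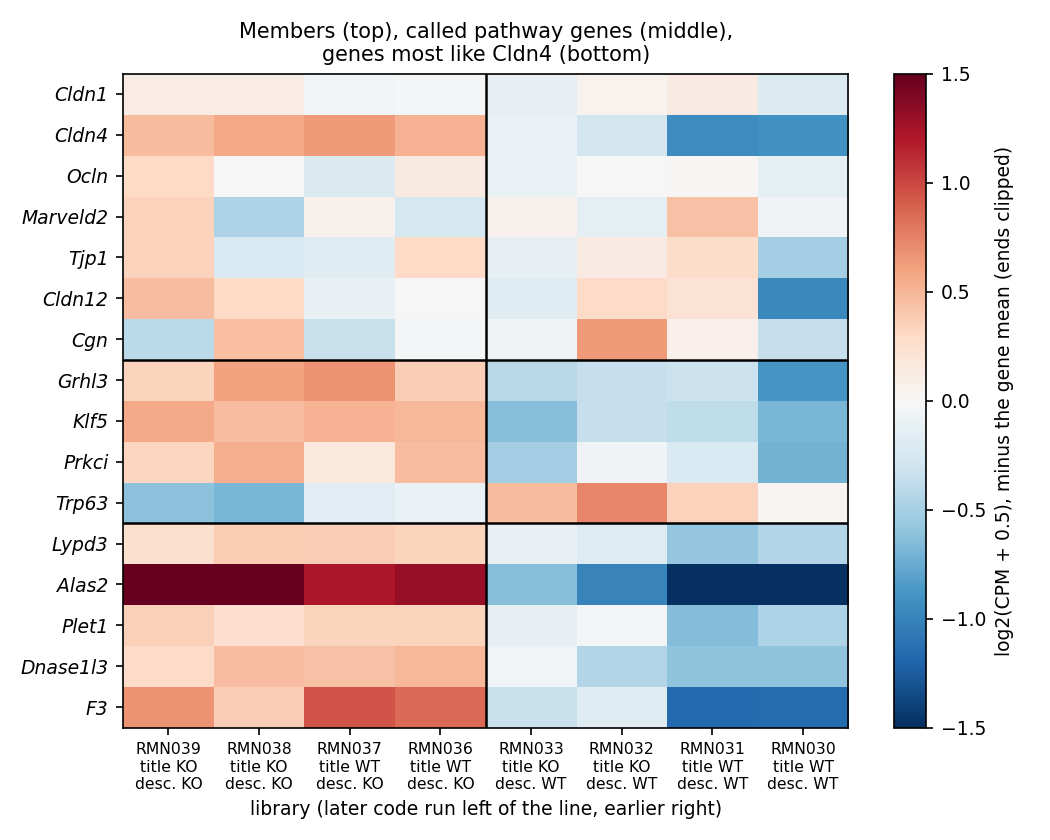
Log2(CPM + 0.5) minus the mean of each gene over 8 libraries (color, clipped at ±1.5) for the 7 tight junction genes in all 3 fits, 4 called genes of the junction lists and the 5 genes most like Cldn4, with the later code run left of the line. Cldn4, Klf5, Grhl3 and Prkci are higher and Trp63 lower in the later run, while the other 6 tight junction genes show no such split.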

How the data were processed

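The authors deposited raw counts of reads per gene for 8 libraries, with no normalization. The submitters' processing notes name STAR 2.5.2b, featureCounts 1.5.0 and GRCm38 (mm10). Strand setting, annotation release and pair handling are not given in the sources used here. Of counts from 1 to 20, 60.1% were even, as when both mates are counted, which would make counting intervals too narrow. Symbols were matched by Ensembl identifier (25080 matched, 167 did not). Lengths and coordinates came from a GENCODE annotation of GRCm38, and CPM is the count over the library total. No 2 libraries agreed within sampling noise.

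edgeR 4.0.16 (R 4.3.3) was run on all genes with filterByExpr, TMM and robust quasi-likelihood F-tests, KO minus WT, with Benjamini-Hochberg adjustment over all genes and a threshold of 0.05. SE was derived from the F statistic. The procedure was tested on simulated data. Permutation tests on CPM were exact, two-sided and unadjusted. The alternatives changed the size factors (RLE), the filter (none, or 1 CPM), the test (DESeq2 1.42.0, limma 3.58.1 voom), the libraries (each left out, RMN030 and RMN031 both left out), the covariates (replicate block, code run) and the gene length (longest transcript). Leaving libraries out of the fit by title code and run was added after seeing the data. The genes and lists were chosen with earlier results of these data known. Named were all 9 genes, the junction list genes and keratinocyte markers past the threshold in any reading, the most abundant of each list and the 5 genes most like Cldn4. Some list genes are not reported here by name.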

Additional observations from a re-analysis of the deposited data

Results flagged for a closer look

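Among 56 sets of 4 libraries examined for the 9 genes, 2 held 1 library far from the other 3, and chance flags about 1 in 20 such sets. Cldn7 was at 1.14 CPM (19 counts) in RMN037, a WT library by title code, whereas the other 3 libraries of that group were between 0 and 0.153 CPM. Cldn23 was at 0 CPM in RMN032, a WT library by description code, whereas the other 3 of that group were between 0.611 and 0.646 CPM. Both genes were near the limit that a count of 0 allows.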

How the results depend on the processing

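Cldn4 kept its call and direction under all 9 alternatives of the undisputed reading (log2 fold change 1.45 to 1.54) and all 15 of the description reading (0.79 to 1.28). It stayed without a call under all 16 of the title reading, where the code run as a covariate gave 0.34 (edgeR adjusted p = 0.761). With a library left out, 1 to 2 tight junction genes were called in the undisputed reading (Cldn1 added without RMN031) and 0 to 1 within the earlier run. Other junction genes called in the undisputed reading numbered 2, against 5 with no filter, 6 by DESeq2 and 1 to 8 with a library left out (1 without RMN038, 8 without RMN031). By description code they numbered 5, against 3 (without RMN033, RMN038 or RMN039) to 5 with a library left out, 6 with no filter or by limma voom and 7 by DESeq2. Over all genes, the undisputed reading called 117 by edgeR, 440 with no filter and 293 by DESeq2, the title reading 0 by edgeR and 24 by DESeq2, and the description reading 296 by edgeR and 686 by DESeq2.

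Signs turned for values without a call. Without RMN030 and RMN031 the title log2 fold change was -0.36 for Cldn4, -0.041 for Tjp1 and 0.067 for Marveld2, and the description value was 0.042 for Marveld2. In that title fit the WT libraries were all of the later run and the KO libraries of both runs. By limma voom the title value of Tjp1 was -0.0071. With 1 library left out, undisputed values ranged from -0.14 to 0.61 for Tjp1, -0.27 to 0.64 for Cgn and -0.65 to 0.18 for Marveld2. Title values ranged from -0.020 to 0.49 for Cldn4, -0.0066 to 0.17 for Ocln, -0.10 to 0.15 for Tjp1 and -0.26 to 0.041 for Marveld2, and those of Cldn4 within the later run from -0.082 to 0.033. Description values ranged from -0.36 to 0.097 for Cgn and -0.27 to 0.029 for Marveld2. The cause was not tested. With the longest transcript as length, Cldn1 was at 663 CPM per kb and 7 of 9 genes kept their place in the order of levels, Cldn7 and Cldn23 changing places.

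By title code, the deviations of same-numbered libraries from their group means correlated at 0.052 to 0.10. KO and WT libraries of the same code run correlated at 0.034 to 0.19, and those of different runs at -0.15 to -0.051. By description code, same-numbered libraries correlated at -0.0068 to 0.030. Not every library correlated best with its own number. Title-code replicates 1 and 2 are of the earlier run and 3 and 4 of the later, so that replicate block also takes up code run. With the replicate number as a block, Cldn4 was at 0.34 by title code (edgeR unadjusted p = 0.0473, adjusted p = 0.996) and 1.15 by description code (edgeR adjusted p = 0.0068), with 0 and 1 tight junction genes called. The block moved the description call of other junction genes to 4, without Trp63, and that over all genes to 174. At this depth, Cldn7 and Cldn23 were too low for the filter of the 8-library title and description readings.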
